A study of Homo sapiens with 3 samples.

Results

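The comparison sets the library of MDA-MB-231 cells with the S473D form of KAP1 beside that of cells with wild-type KAP1 (wt), gene by gene, with 1 library on each side. Its members are the 11741 of 19049 genes that averaged at least 1 RPKM over these 2 libraries, RPKM being reads per kilobase of gene model scaled to the size of the library. Of them 168 are short RNAs, described apart because their values rest on few reads, and 11573 genes were compared. MDA-MB-231 is an established cell line from a human breast cancer, and is classed as basal-like. All groups share a short hairpin RNA that depletes the cells' own KAP1, and each carries 1 re-expressed form: wild-type, S473A, in which the serine is an alanine, or S473D, in which it is an aspartate. Cells grew in DMEM with fetal bovine serum, and total RNA was taken with TRIzol. The labels do not say whether the lines are clones or pools. The study asks how gene expression differs with the state of this serine, and the S473A library is given beside the other libraries as the remaining form. It shares the wt library as its control.

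KAP1, the product of TRIM28, does not read DNA sequence itself: KRAB zinc finger proteins bring it to their sites, where it represses by gathering histone deacetylase and methyltransferase complexes. Phosphorylation of its serines is known to loosen this repression, for instance after DNA damage. Aspartate carries a negative charge and is used to imitate a phosphorylated serine, while alanine cannot be phosphorylated.

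The residue that separates the forms is read from the TRIM28 gene, shown to fix which bases the substitutions concern. In the GENCODE release 29 transcript it lies at chr19:58548995-58548997 on the + strand of GRCh38, in exon 12 of 17. The capitals mark the codon, TCA, and the stretch starts in exon 11. This is the reference sequence, and the sequence of the re-expressed constructs was not used here.
TRIM28 codon of S473: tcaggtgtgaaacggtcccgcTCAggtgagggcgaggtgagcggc

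The wt library held an estimated 25600000 reads, the S473A library 29300000 and the S473D library 23800000. Summed RPKM came to 330667, 330916 and 393381 in that order. Such a sum rises when more reads fall on short gene models or when more of the scaled reads fall on genes. The share of reads by gene length was not computed. TRIM28 itself stood at 28.7 RPKM with wt, 32.3 with S473A and 25.6 with S473D, values that do not separate the endogenous from the re-expressed transcript. Of the markers of the line's mesenchymal, basal-like state 9 of 9 measured ones passed 1 RPKM in both libraries, with VIM (vimentin) at 738 RPKM in wt and 673 in S473D. Of 13 measured genes on the luminal list 6 reached 1 RPKM in wt and 7 in S473D. Among them were KRT18 at 171 and 188 RPKM, KRT8 at 131 and 178 and ERBB2 at 7.94 and 5.34, while ESR1, PGR, CDH1 and EPCAM stayed under 0.4. That list also holds the basal keratin genes KRT14, at 0 RPKM in wt and 0.034 in S473D, and KRT5, which had no value. Of 5 blood and immune markers in the table only CD68 passed 1 RPKM, at 50.1 in wt and 36.7 in S473D, and of 7 fibroblast markers only COL1A1, at 1.63 and 1.66. Each form has 1 library, so replicate error is unknown and no test was run. A difference is S473D less wt in log2(RPKM + 1), a scale that shrinks the differences of low genes. In bulk RNA fewer cells expressing a gene and less RNA per cell cannot be told apart. Ratios of RPKM carry exact 95% intervals, which are based on estimated reads and hold counting error only.

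The S473D library held a small group of strongly higher genes, with MMP1, SERPINB2, SPANXA2 and IL13RA2 at the top, and a broad shift toward short transcripts. Of the 11573 genes 117 were at least 2-fold higher in S473D (1.01% of genes) and 11 at least 2-fold lower (0.095%), 128 in all (1.11%). Against the same control, S473A had 2 of 11618 genes 2-fold apart (0.0172%). The median difference was -0.10, with quartiles of -0.30 and 0.17, and 5532 genes (47.8%) lay within 0.25 of wt. More genes were lower (7002, or 60.5%) than higher (4571, or 39.5%). The median size of a difference, taken without its sign, was 0.26 for S473D and 0.05 for S473A over the same genes.

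**Figure D1:**
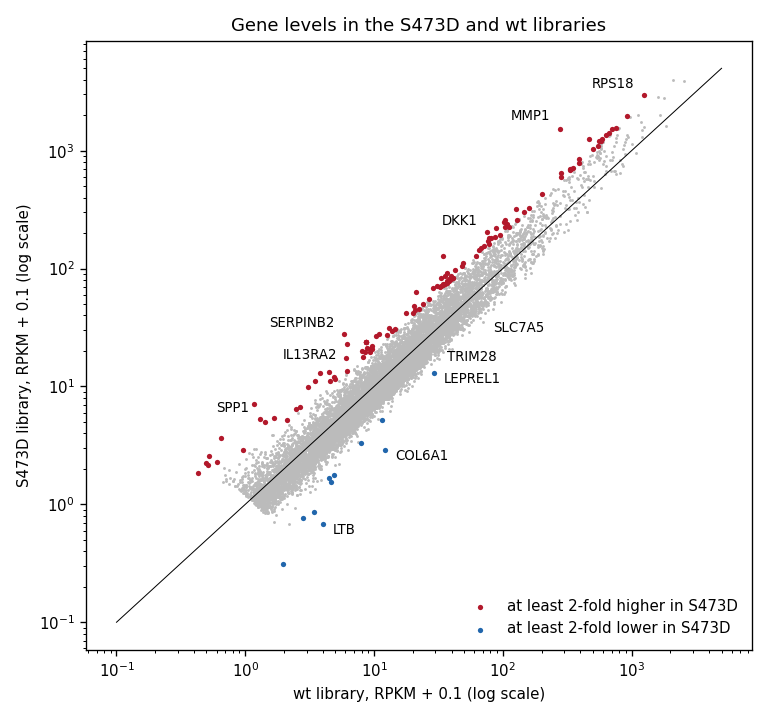
Level of each of the 11573 genes in the wt library (x axis) and the S473D library (y axis), in RPKM + 0.1 on log scales, with the line of equal levels. The 117 genes at least 2-fold higher in S473D on the log2(RPKM + 1) scale (red) run over the whole range of levels, while the 11 lower ones (blue) all lie under 30 RPKM.

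Extracellular proteases and their inhibitors are described first. The interstitial collagenase gene MMP1 stood at 279 RPKM with wt, 191 with S473A and 1541 with S473D, a difference of 2.46. MMP3, which encodes stromelysin-1, stood at 4.75, 3.48 and 11.8 RPKM in the same order (1.16). The inhibitor gene SERPINB2, whose product PAI-2 blocks plasminogen activators, stood at 5.79, 4.34 and 27.8 RPKM (2.09). For all 3 genes the S473D library was the highest and the S473A library the lowest. Other proteases went the other way: the gelatinase gene MMP9 stood at 2.70 RPKM with wt, 2.64 with S473A and 0.660 with S473D (-1.16), and the membrane collagenase gene MMP14 at 148, 151 and 103 (-0.52). PLAU, the urokinase gene, stood at 321, 348 and 212 RPKM (-0.59). TIMP1 was higher in S473D (0.54), and TIMP2 (-0.53) and TIMP3 (-0.72), which encode further metalloproteinase inhibitors, were lower. Of 6 measured matrix metalloproteinase genes 2 were 2-fold higher and 1 was 2-fold lower, with a group median of -0.10, that of all genes.

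AP-1, a dimer of FOS and JUN family proteins, is a known activator of protease genes, so its core motif TGANTCA, which reads the same on both strands, was searched in RefSeq promoter windows. These run from 250 bases before to 50 after each start (GRCh38.p14), and 2707 of 35116 windows (7.71%) held it. Windows were found for 7 of the 15 genes with the highest differences, and SERPINB2 alone held a match. They were found for 8 of the 15 with the lowest, and FOSL2 and IGF2BP2 held one. The SERPINB2 stretch below covers bases 132 to 66 before its start, at chr18:63887573-63887639 on the + strand, and is shown for the second-highest difference, with the match in capitals. A match is a description of letters and not a bound site.
SERPINB2 upstream: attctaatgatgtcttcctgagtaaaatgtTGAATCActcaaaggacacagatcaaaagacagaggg

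Of the genes for AP-1 proteins and their ATF relatives 13 of 18 were lower in S473D (median -0.18), against 60.5% of all genes, with none 2-fold apart. FOSL2 stood at 40.4 RPKM with wt, 38.4 with S473A and 20.6 with S473D (-0.94), JUN at 98.2, 100 and 65.9 (-0.57), and FOSL1 at 188, 186 and 132 (-0.51). ATF4, a regulator of amino acid stress genes, was the highest of the group at 200, 187 and 261 RPKM (0.38).

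Receptors and signalling proteins are described next. IL13RA2, a decoy-type receptor of interleukin-13, stood at 6.10 RPKM with wt, 8.97 with S473A and 22.7 with S473D (1.74). The other measured genes of interleukin-4 and interleukin-13 signalling were all lower in S473D, 7 of 8 with a group median of -0.31, among them IL13RA1 (-0.56) and IL4R (-0.51). DKK1, a secreted antagonist of Wnt receptors, stood at 75.9, 73.2 and 206 RPKM (1.43). Of 24 Wnt pathway genes 20 were lower (median -0.24), against 60.5% of all genes, with LRP5 at -0.64 and the signal transducer gene DVL3 at -0.80. With the trend over transcript length, described below, removed, the group medians were -0.20 for interleukin-4 and interleukin-13 signalling and -0.05 for the Wnt genes. With GC content removed too they were -0.12 and -0.004. LY96, the co-receptor gene of TLR4, stood at 3.70, 5.12 and 12.9 RPKM (1.57), and TLR4 itself at 2.16, 2.08 and 2.44 (0.12). In each of these pathways 1 gene stood far above wt while most of the others lay near or below it.

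Among further higher genes PTPRR, GNG11 and ST6GALNAC5 had transcripts of 3529, 3055 and 3751 bases, near the median of 3214 over all genes. PTPRR, which encodes a receptor-type tyrosine phosphatase that acts on MAP kinases, was 2.98-fold higher (4.39 RPKM with wt, 3.69 with S473A and 13.1 with S473D, interval 2.65 to 3.35). GNG11, a G protein gamma subunit gene, was 2.29-fold higher (42.3, 45.0 and 97.0 RPKM, interval 2.20 to 2.39), but its coding part is short, at 219 bases. The sialyltransferase gene ST6GALNAC5 was 2.25-fold higher (3.68, 3.55 and 8.30 RPKM, interval 1.98 to 2.56) with a difference of 0.99, short of a 2-fold call. ANKRD1, a stretch-responsive nuclear cofactor gene, stood at 35.5, 32.9 and 85.9 RPKM (1.25). For these genes the S473A library lay beside wt and the S473D library stood alone.

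At the low end, genes averaging 1 to 5 RPKM were named after their values were seen. SPP1, which encodes the matrix cytokine osteopontin, was 4.38-fold higher (1.191 RPKM with wt, 1.30 with S473A and 5.21 with S473D, interval 3.19 to 6.16). The chemokine receptor gene CXCR4 was 3.35-fold higher (1.57, 2.09 and 5.27 RPKM, interval 2.59 to 4.42). PDE1C, a cyclic nucleotide phosphodiesterase gene, was 5.40-fold higher (0.397, 0.372 and 2.14 RPKM, interval 4.30 to 6.85) with a transcript of 8852 bases. Its shortest RefSeq-linked transcript has 2420 bases, and the interval rests on reads estimated from the longer one, so its length and interval are uncertain. In the other direction the lymphotoxin gene LTB was 6.67-fold higher in wt (3.92, 1.72 and 0.588 RPKM, interval 3.58 to 12.6), with S473A between the other libraries. TNS1, which encodes the adhesion protein tensin-1, was 2.87-fold higher in wt (4.77, 5.30 and 1.66 RPKM, interval 2.56 to 3.21). The wide interval of LTB rests on an estimated 13 reads in S473D.

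The 2-fold lower genes were few, with COL6A1 (-1.78), LTB (-1.63), PAEP (-1.30) and SAPCD1 (-1.23) at the bottom. COL6A1, a chain of collagen VI, stood at 12.1 RPKM with wt, 11.3 with S473A and 2.80 with S473D (-1.78). LEPREL1, a collagen prolyl 3-hydroxylase gene, stood at 29.1, 27.7 and 12.998 RPKM (-1.11), and CHST15, a chondroitin sulfotransferase gene, at 7.88, 7.59 and 3.19 (-1.08). The S473A value lay within 1 RPKM of wt for COL6A1 and CHST15. Just short of 2-fold were CAMK2N2, an inhibitor gene of CaM kinase II (13.1, 12.8 and 6.09 RPKM, -0.995), the large amino acid transporter gene SLC7A5 (70.05, 66.0 and 34.8, -0.99) and BCL3 of the NF-kB inhibitor family (7.47, 7.31 and 3.31, -0.98). GLUL, the glutamine synthetase gene, stood at 10.6, 11.1 and 5.21 RPKM (-0.90), CSF1, a macrophage growth factor gene, at 13.4, 11.1 and 6.77 (-0.89), and IGF2BP2, which encodes an mRNA-binding protein, at 54.1, 51.5 and 29.04 (-0.88). The nuclear noncoding RNA NEAT1, the scaffold of paraspeckles, stood at 96.0, 90.3 and 51.8 RPKM (-0.88). The other 2-fold lower genes were LTB, PAEP, SAPCD1, PLSCR3, MMP9, TNS1, FLJ26245 and MSTO2P, the last of which resembles MSTO1 in sequence and is uncertain.

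**Figure D2:**
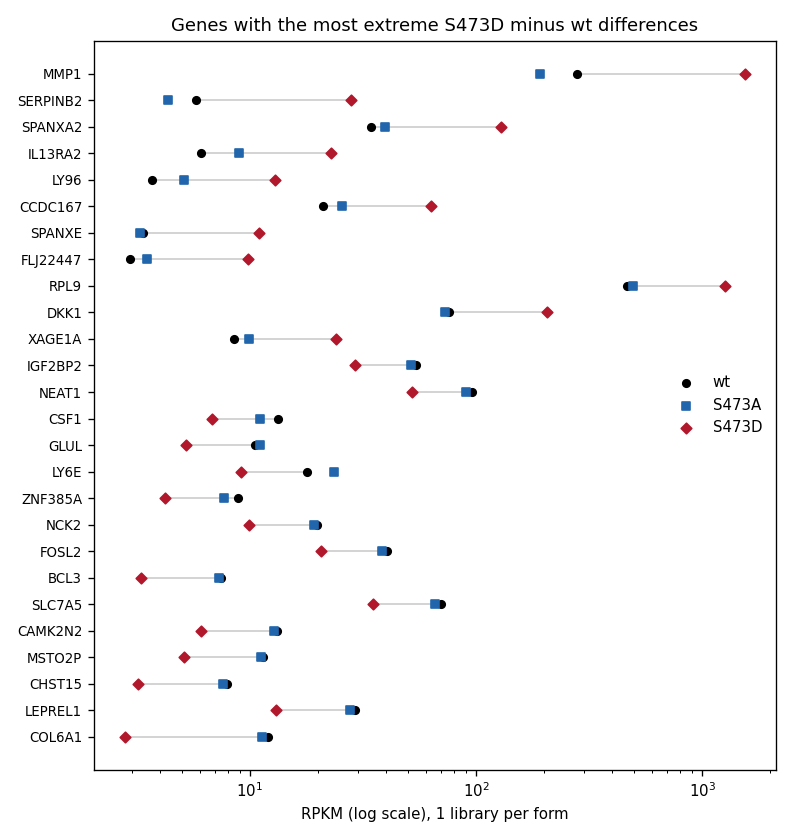
Levels in RPKM (log scale) in the wt (black), S473A (blue) and S473D (red) libraries for the 15 highest and 15 lowest differences between S473D and wt among genes averaging at least 5 RPKM, with the 5 identical XAGE1 symbols drawn once. In most rows the wt and S473A points lie close together, and they lie farthest apart for MMP1, IL13RA2, LY96, LY6E and SERPINB2.

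Transcript length accompanied the differences over the whole table. With genes cut into 10 equal groups by length, 77.7% of the shortest group (75 to 1291 bases) were higher in S473D, with a median difference of 0.38. The median passed through 0 between the third and the fourth group, and in the longest (7265 to 34526 bases) 12.9% were higher, with a median of -0.27. Between S473A and wt the medians of the same groups stayed within 0.01 of 0. Over 11314 genes with a matched transcript Spearman's rho between length and difference was -0.44 for S473D and -0.01 for S473A, both descriptions across genes of the same libraries. A smooth trend ran from 0.59 at 500 bases through 0.35 at 1000, 0.05 at 2000 and -0.15 at 4000 to -0.24 at 8000, and it held 23.5% of the variance of the differences.

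**Figure D3:**
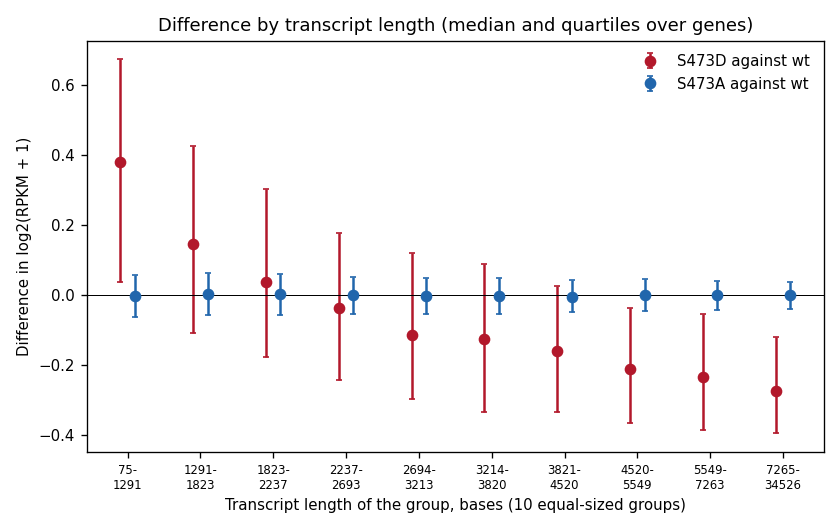
Difference in log2(RPKM + 1) from wt (y axis) over 10 equal-sized groups of genes by transcript length in bases (x axis), as medians (points) with quartiles (bars). The S473D medians step down from 0.38 in the shortest group to -0.27 in the longest, while those of S473A lie within 0.01 of 0.

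Short coding parts and short 3′ untranslated parts both went with higher values in S473D. The same rank correlation was -0.45 for coding length, -0.26 for the 3′ untranslated length and -0.09 for the 5′ untranslated length over 10786 coding genes. With each cut into 3 equal classes, genes short in both coding length and 3′ untranslated length had a median of 0.33 with 76.2% higher. Genes with a short coding part and a long 3′ part had a median of -0.03, genes with a long coding part and a short 3′ part -0.20, and genes long in both -0.28 with 12.2% higher. GC content of the transcript went with the difference too: with the length trend removed the medians ran from 0.18 in the fifth of genes with the lowest GC content to -0.16 in the fifth with the highest. Length and GC content together held 37.8% of the variance. Whether these trends arose in the cells or in making the libraries was not tested, and with 1 library per form the 2 cannot be told apart.

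The trend was steepest among abundant genes. With genes also cut into 3 equal classes by level, the median of the shortest length group was 0.03 in the lowest class, 0.29 in the middle class and 0.53 in the highest, while that of the longest group was -0.27, -0.29 and -0.23. Leaving out ribosomal, mitochondrial ribosomal and oxidative phosphorylation genes kept the medians of the shortest and the longest group at 0.33 and -0.27. Single abundant genes lay on and off the trend. The ribosomal protein gene RPL41 stood at 2096 RPKM with wt, 2098 with S473A and 4009 with S473D, the elongation factor gene EEF1A1 at 2547, 2546 and 3912, and the glycolytic gene GAPDH at 1797, 1736 and 2789. ACTB, which encodes beta-actin, stood at 1846, 1930 and 1605 RPKM. The trend at their lengths was 0.49 for RPL41, -0.17 for EEF1A1, 0.08 for GAPDH and 0.09 for ACTB, against differences of 0.94, 0.62, 0.63 and -0.20.

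The 2-fold higher genes were mostly short. Their median transcript length was 942 bases, against 3214 for all genes, 104 of the 113 with a length lay below that overall median and 74 in the shortest of the 10 groups. Of the 117 genes, 15 encode cytosolic ribosomal proteins (12.8%, against 0.691% of all genes), 12 encode parts of oxidative phosphorylation (10.3%, against 0.873%), 8 are XAGE1 or SPANX testis antigen symbols (6.84%, against 0.095%) and 6 are annotated pseudogenes (5.13%, against 1.99%). Near-identical copies share reads in such families, and 5 XAGE1 symbols carry identical values, so these counts are uncertain. Over the 11314 genes with a matched transcript 113 were at least 2-fold higher (0.999%) and 10 at least 2-fold lower (0.0884%), with 39.4% higher and 60.6% lower in all. With the trend subtracted, 51 of these genes were at least 2-fold above genes of their length (0.451%) and 25 at least 2-fold below (0.221%), 76 together (0.672%), and 48.6% lay above the trend and 51.4% below it. Of the 113 higher genes with a matched transcript 31 still were 2-fold above genes of their length, and of the 10 lower ones 7 still were 2-fold below. MMP1 (2.40 above genes of its length), SERPINB2 (2.07), IL13RA2 (1.53), PTPRR (1.51), DKK1 (1.33) and GNG11 (1.28) were among the 31, as COL6A1 (-1.62), LTB (-2.03) and MMP9 (-1.14) were among the 7. With the trend taken on coding length instead, GNG11 stood at 0.79, short of 2-fold.

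Some genes ran against the length trend. Lower in S473D despite a short coding part were LY6E, a GPI-anchored surface protein gene (17.8 RPKM with wt, 23.5 with S473A and 9.09 with S473D, -0.90) and ATP6V0C, the proteolipid subunit gene of the vacuolar proton pump (77.2, 80.2 and 44.3, -0.79). The vesicle SNARE gene VAMP2 stood at 8.26, 8.03 and 4.41 RPKM (-0.78), CALM3, one of the calmodulin genes, at 104, 103 and 63.4 (-0.71), and FTH1, the ferritin heavy chain gene with many processed copies, at 375, 365 and 260.0 (-0.53). Higher despite a long coding part were the dynein heavy chain gene DNAH14 (5.23, 5.24 and 7.63 RPKM, 0.47), the G protein regulator gene RGS3 (14.3, 12.9 and 20.1, 0.46), the replication factor C gene RFC1 (13.8, 14.03 and 16.4, 0.24), the ubiquitin ligase gene NEDD4 (20.6, 21.9 and 23.7, 0.19) and THBS1, the thrombospondin-1 gene (48.9, 45.4 and 55.9, 0.19). The short genes named here lay 0.53 to 0.90 below wt and the long ones 0.19 to 0.47 above it. The place of DNAH14 among long genes is uncertain, since its matched transcript has 13763 bases and its shortest RefSeq-linked one 1103.

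Gene groups were read beside all genes, of which 39.5% were higher in S473D with a median of -0.10, and beside the medians left with the length trend removed, given second. That trend takes no account of level. The shortest length group had a median of 0.38 over all genes and of 0.53 in the highest class by level. Groups of short, abundant genes may therefore keep part of the trend in their second value, and how much was not tested. Nuclear genes of the respiratory complexes were higher almost throughout: 39 of 42 for complex I (median 0.64, then 0.31), 9 of 10 for complex III (0.89, 0.40), 21 of 23 for complex IV and cytochrome c (0.55, 0.39) and 18 of 20 for ATP synthase (0.56, 0.40). The respiratory chain gene NDUFA4 stood at 36.6 RPKM with wt, 37.8 with S473A and 92.1 with S473D. In the same order the cytochrome oxidase gene COX7B stood at 103, 101 and 257 RPKM, and the ATP synthase gene ATP5E at 389, 377 and 855. Of 6 complex II genes 4 were higher (0.50, 0.31). Larger core subunit genes lay lower, with NDUFV1 at -0.25, NDUFS1 at -0.04 and SDHA of complex II at -0.32. Of 27 mitochondrial protein import genes 21 were higher (0.37, 0.23), with the small pore subunit genes TOMM7 (67.4, 63.7 and 150 RPKM, 1.14) and TOMM6 (1.01) at the top and the channel gene TOMM40 (79.9, 83.6 and 64.7 RPKM, -0.30) at the bottom. The tricarboxylic acid cycle was level (10 of 22 higher, median -0.08, then 0.03), from MDH1 at 0.89 to the citrate synthase gene CS at -0.55.

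Genes of mitochondrial fusion and fission, which set the shape of the organelle, lay near wt. Of 15 measured 7 were higher (median -0.02), and 13 lay above the trend for their length (median 0.10). The fission genes FIS1 (36.7 RPKM with wt, 36.3 with S473A and 64.9 with S473D, 0.81), MTFP1 (22.6, 25.8 and 40.3, 0.80) and MFF (26.1, 26.1 and 35.9, 0.44) were the highest, and with the trend removed they stood at 0.33, 0.60 and 0.43. The fusion genes MFN1 (-0.13), MFN2 (-0.14) and OPA1 (-0.09) and the fission GTPase gene DNM1L (-0.08) were slightly below wt and, with the trend removed, between 0.04 and 0.13 above it.

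Ribosomal, proteasome and chaperonin genes were mostly higher as well, and the same limit of the trend over levels holds for them. Of 48 large ribosomal subunit genes 47 were higher in S473D (0.76, 0.45) and of 32 small subunit genes 31 (0.89, 0.49). All 17 measured genes of the proteasome core were higher (0.75, 0.39), with PSMA3 at 80.3 RPKM with wt, 81.0 with S473A and 183 with S473D and PSMA2 at 77.2, 80.5 and 172. Of 30 genes of its regulatory cap and assembly factors 22 were higher (0.28, 0.16), from PSMC6 at 0.91 to the longer PSMD3 at -0.44 and PSME3 at -0.46. Of 14 genes of the CCT chaperonin and prefoldin, which fold actin and tubulin, 12 were higher (0.44, 0.40), with PFDN4 at 1.09 and CCT2 at 0.88 (185, 184 and 341 RPKM). Antioxidant enzymes followed, with 26 of 30 higher (0.36, 0.21), led by the thioredoxin gene TXN (202, 197 and 431 RPKM, 1.09) and GSTO1 (1.005), with SOD2 at -0.37. Translation factors were split, 25 of 48 higher (0.04, -0.01), from EEF1E1 at 1.09 and EIF6 at 0.81 to the scaffold gene EIF4G1 (165, 165 and 92.0 RPKM) at -0.84. In other groups of protein synthesis and turnover fewer members were higher. These were 9 of 22 cytosolic tRNA synthetase genes (-0.15, 0.001) and 5 of 26 cullin and large ubiquitin ligase genes (-0.17, 0.07). They were 14 of 34 lysosomal hydrolase genes (-0.15, -0.07) and 15 of 31 autophagy genes (0.00, 0.01). With the length trend removed, 16 of the 26 cullin and ligase genes and 11 of the 22 synthetase genes lay above it.

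Chaperones, the proton pump and antigen presentation were mixed. Of 33 heat shock protein and co-chaperone genes 21 were higher (0.07, 0.15), although STIP1, which links HSP70 to HSP90, stood at 205 RPKM with wt, 209 with S473A and 132 with S473D (-0.63). Of 17 vacuolar ATPase genes 10 were higher (0.13, 0.19), with ATP6V1G1 at 1.01 and ATP6V1D at 0.94 against ATP6V0C at -0.79. Among 16 genes of MHC class I and antigen processing 5 were higher (-0.08, -0.02), and the light chain gene B2M, at 333, 321 and 690 RPKM (1.05), was the 1 member that was 2-fold higher. Of the 6 luminal markers averaging at least 1 RPKM 4 were higher, KRT19 (11.1, 9.45 and 21.5 RPKM, 0.89), KRT8 (0.44), KRT18 (0.13) and FOXA1 (0.04), while ERBB2 (-0.50) and GATA3 (-0.15) were lower.

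Within some complexes, but not others, the difference went with the subunit's transcript length. For RNA polymerase II, 7 of 12 genes were higher, and rho between length and difference was -0.78: the small subunit gene POLR2K stood at 48.1 RPKM with wt, 46.7 with S473A and 89.6 with S473D (0.88), and the largest, POLR2A, at 34.2, 35.0 and 23.1 (-0.55). Among 31 Mediator genes 15 were higher (rho -0.69), from MED30 at 0.71 to MED1 at -0.62. Among 42 Sm, LSm and small snRNP protein genes of the spliceosome 25 were higher (rho -0.71), with SNRPG at 0.99 and SNRPE at 1.005 against the large SF3B3 and SF3A1, both at -0.62. The nuclear pore gave rho -0.67 over 28 genes, with NUPL2 at 0.76 and POM121 at -0.65, and complex IV -0.72 over 23. Little or no such relation was seen over the genes of ATP synthase (-0.06), complex III (-0.09), CCT and prefoldin (-0.09), the small ribosomal subunit (-0.19), SWI/SNF (-0.01) and NuRD (0.13). These values rest on the matched transcript, which for some members is far longer than the shortest RefSeq-linked one, as for UQCRB (5575 against 595 bases) and RPS24 (2712 against 537). Whether rho within groups differs on other lengths was not tested. In the polymerase, Mediator, snRNP and pore groups members lay on both sides of wt, with group medians between -0.05 and 0.16.

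**Figure D4:**
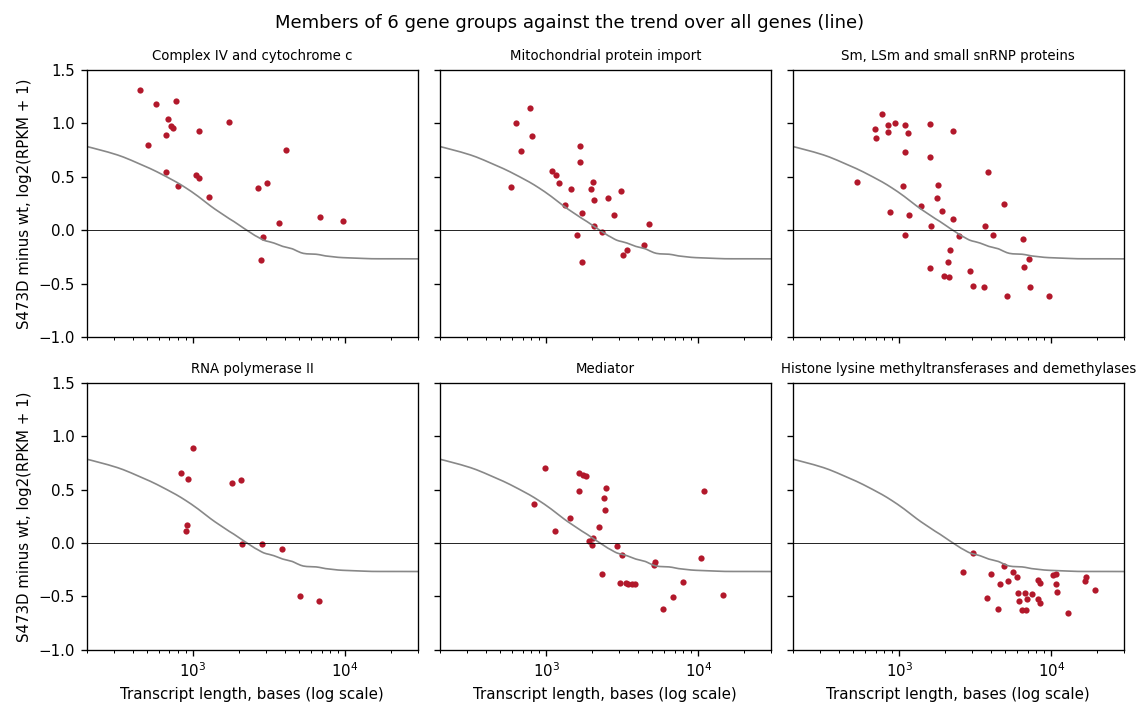
Difference between S473D and wt in log2(RPKM + 1) (y axis) against transcript length in bases (x axis, log scale) for the members of 6 gene groups, with the smooth trend over all genes as a line. Complex IV and import genes lie mostly above the line, RNA polymerase II and Mediator genes on both sides of it, and 28 of 29 histone methyltransferase and demethylase genes below it.

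In 4 groups of chromatin regulator genes, 1 of them KAP1 and its partners, most members were lower. All 29 measured histone lysine methyltransferase and demethylase genes were lower in S473D (median -0.38, then -0.20), with NSD1 at 9.54 RPKM with wt, 9.41 with S473A and 5.69 with S473D (-0.66) and SETD1A at 8.57, 8.11 and 5.20 (-0.63). Of 19 SWI/SNF remodeller genes 18 were lower (-0.36, -0.22), with PHF10 at 21.3, 18.8 and 12.9 RPKM (-0.68) and ARID1A at -0.49. Of 13 NuRD genes 12 were lower (-0.24, -0.11), HDAC2 at 0.28 being the exception. Of 22 genes for KAP1 and its heterochromatin partners 18 were lower (-0.30, -0.08), with the H3K9 methyltransferase gene SETDB1 at 8.68, 9.26 and 6.18 RPKM (-0.43) and MORC2 at -0.48, while the HP1 gamma gene CBX3 (137, 144 and 189 RPKM) was at 0.46. These are long transcripts, with group median lengths from 4387 to 6813 bases, and the medians with the length trend removed were nearer to 0 in all 4 groups. With GC content removed too they were -0.15 for the methyltransferases and demethylases, -0.14 for SWI/SNF, -0.04 for NuRD and -0.08 for KAP1 and its partners.

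Testis antigen genes, often silenced in body tissues, were all higher in S473D among the 12 measured symbols (0.99, 0.33). Most are short and have near-identical copies. SPANXA2 stood at 34.5 RPKM with wt, 39.5 with S473A and 129 with S473D, and the 5 XAGE1 symbols at 8.49, 9.92 and 23.9. The longer MAGE genes differed less, with MAGEA6 at 70.8, 67.0 and 83.5 RPKM (0.24) and MAGEA2 at 12.5, 10.9 and 14.9 (0.24).

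In several groups of matrix and cell surface genes most members were lower, against 60.5% of all genes, but not in all of them. Plasminogen activation and serpin genes were higher in 8 of 12 (median 0.17, then 0.14), and tetraspanin genes in 10 of 17 (0.08, then -0.08). Of 12 measured collagen genes 10 were lower (median -0.32, then -0.10). Beside COL6A1 they included COL4A2 of basement membranes (31.6 RPKM with wt, 30.8 with S473A and 20.6 with S473D, -0.60) and COL27A1 (-0.60), while COL8A1 was at 0.12. Of 18 collagen-modifying enzyme genes 14 were lower (-0.33, -0.21), with LOXL2, a crosslinking oxidase gene, at 96.6, 92.9 and 62.3 RPKM (-0.62), and P4HA1 at 0.44 on the other side. Of 10 laminin and basement membrane genes 9 were lower (-0.44, -0.21), with AGRN at -0.64 and LAMC1 at -0.53, and of 16 matricellular and elastic fibre genes 14 (-0.28, -0.16), with CYR61 at 297, 295 and 204 RPKM (-0.54). With GC content removed as well as length, the collagen median turned to 0.05, and those of the collagen-modifying (-0.06), laminin (-0.08) and matricellular (-0.04) groups came close to 0.

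Guidance receptors, receptor kinases and integrins were mostly lower. All 15 plexin, neuropilin and semaphorin genes were lower (-0.33, -0.11), most of all SEMA4B at 31.7 RPKM with wt, 32.7 with S473A and 17.1 with S473D (-0.85), and 13 of 14 receptor tyrosine kinase genes (-0.16), whose median was 0.02 with the length trend removed. AXL stood at 123, 125 and 87.9 RPKM (-0.48) and FGFR1 at 20.2, 20.2 and 13.7 (-0.52). The ephrin gene EFNB1 stood at 6.19, 6.62 and 2.80 RPKM (-0.92). Of 10 integrin genes 8 were lower (-0.20, then 0.04), with ITGA3 at 123, 118 and 81.2 RPKM (-0.59), while the beta 1 chain gene ITGB1 stayed at 386, 397 and 395 (0.04) and ITGAE was higher (0.76). Of 29 myosin, filamin, plectin and spectrin genes 27 were lower (-0.42, -0.20, and -0.09 with GC content removed too). Among them were MYO18A at -0.71 and the actin crosslinker gene ACTN4 at 125, 126 and 83.1 RPKM (-0.58). In contrast 20 of 32 genes for actin, the ARP2/3 complex and small actin-binding proteins were higher (0.05, then 0.02), with ARPC3 at 235, 233 and 438 RPKM (0.89).

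Signalling groups differed among themselves. In the TGF-beta and BMP pathway 28 of 32 genes were lower (-0.29, -0.14), the ligand gene TGFB1 at 17.7 RPKM with wt, 18.1 with S473A and 10.3 with S473D (-0.73) and the effector gene SMAD3 at 50.2, 50.4 and 30.6 (-0.70), while INHBA, an activin subunit gene, was at 0.65. Of 17 NF-kB subunit and inhibitor genes 14 were lower (-0.28, -0.20). Interleukin, chemokine and colony-stimulating factor genes went both ways, 10 of 18 higher (0.08, but -0.19 with the length trend removed), with IL18 at 4.21, 3.69 and 8.69 RPKM (0.89) and IL1A at 10.6, 10.1 and 19.3 (0.80) against CSF1 and IL11 (-0.52). Of 26 YAP and TEAD target genes 21 were lower (-0.35, -0.16), ANKRD1 being the clearest exception, and of 12 Notch pathway genes 10 (-0.20, -0.14), with the receptor gene NOTCH2 at 33.8, 33.1 and 20.1 RPKM (-0.72). With GC content removed as well as length, the medians were -0.07 for NF-kB and -0.01 for Notch. They were -0.15 for TGF-beta and BMP, -0.13 for YAP and TEAD targets and -0.23 for the interleukin, chemokine and colony-stimulating factor genes.

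Lipid synthesis lay below wt, and most other metabolic and cell cycle groups near all genes. Of 18 fatty acid synthesis and desaturation genes 16 were lower (-0.35, -0.20), with the desaturase gene FADS2 at 74.9 RPKM with wt, 74.0 with S473A and 49.8 with S473D (-0.58). Of 28 cholesterol synthesis and uptake genes 21 were lower (-0.24, -0.20), with HMGCS1 at -0.51, and IDI1 was at 0.58. Glycolysis (9 of 23 higher, -0.10, then 0.02), hypoxia targets (9 of 24, -0.12, then -0.02) and DNA replication (19 of 42, -0.04, then 0.11) had medians within 0.06 of that of all genes as deposited. Single members differed widely: the hypoxia gene BNIP3 was at 0.71 and NDRG1 at -0.71, and the sliding clamp gene PCNA at 115, 117 and 224 RPKM (0.95). Among mitotic genes CDK1 was at 0.90 and PLK1, at 69.3, 70.1 and 46.0 RPKM, at -0.58.

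**Figure D5:**
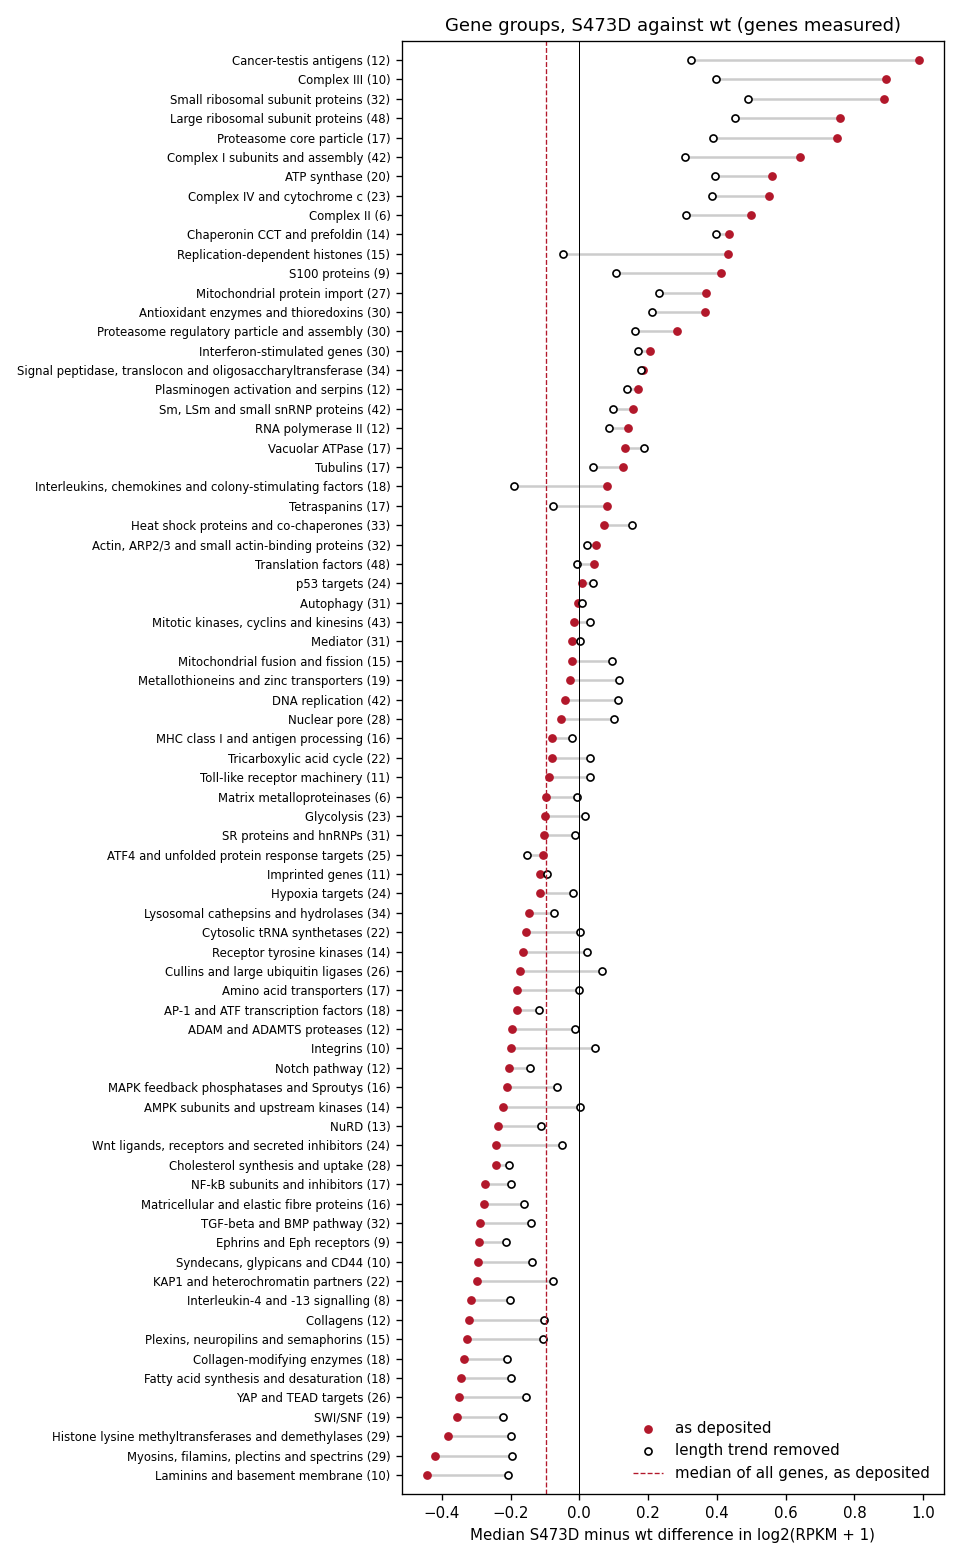
Median difference between S473D and wt in log2(RPKM + 1) (x axis) of 74 of the 75 gene groups with at least 5 measured members, as deposited (red) and with the length trend removed (open), with the number of measured genes in brackets and the median of all genes as a dashed line. Respiratory, ribosomal and proteasome groups lie to the right of 0 in both settings, and 19 groups lie on different sides of 0 in the 2 settings.

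Of the 75 groups 28 had a median above 0, and 39 with the length trend removed. Of the 19 that changed sign, 15 turned higher and 4 lower. Removing the trend also brings the median of all genes near 0, and centring the differences on their median, with no account of length, turned 11 groups higher and none lower. Replication-dependent histone genes were one of the 4, with 13 of 15 higher as deposited (median 0.43) and a median of -0.05 with the trend removed.

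Outside coding genes, long noncoding RNAs were split, 116 of 229 higher with a median of 0.00 (-0.11 with the length trend removed), and 102 of 230 annotated pseudogenes were higher (-0.04, then -0.22). Both shares lay above the 39.5% of all genes, while both medians with the trend removed lay below 0. LINC00493 stood at 33.1 RPKM with wt, 29.8 with S473A and 83.8 with S473D (1.31), and was named after its value was seen. Of the 168 short RNAs 106 were higher in S473D, 14 at least 2-fold, and 7 were at least 2-fold lower. Among the 11573 other genes 39.5% were higher, 1.01% at least 2-fold, and 0.095% were at least 2-fold lower. The short RNAs rest on a median of 8 estimated reads in wt, and 16 of them were 2-fold apart between S473A and wt.

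By chromosome the medians with the length trend removed ran from -0.12 on chromosome 16, -0.10 on 19 and -0.09 on 17 to 0.08 on chromosome 10 and 0.11 on 4. Chromosomes 16 and 19 are rich in GC, with median transcript GC contents of 56.2% and 59.2% against 42.7% on chromosome 4. With GC content also removed chromosome 19 stood at 0.01 and chromosome 4 at 0.02, and the range over chromosomes was 0.135 in place of 0.230. Of the 113 2-fold higher genes with a matched transcript 13 lay on X, which holds 399 of the 11314 genes, and 5 of the 13 are the XAGE1 symbols with identical values.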

How the data were processed

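Total RNA from 3 libraries, 1 for each KAP1 form, was sequenced on Illumina protocols, per the labels' protocols. The submitters' processing notes name Bowtie, Partek and hg19, while versions, the annotation and the counting rule were not given in the sources used here. Values in the deposited table are log2 of RPKM plus an offset of 0.1 added by the authors, read from the lowest entry (-3.32), which all columns share. RPKM was recovered by undoing both. Of 19076 lines 27, with symbols turned into dates or repeated, were left out.

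RPKM is relative to all counted reads and to gene length, so a preference of a library for short transcripts remains in it. Depths were estimated from the steps between low values, with 2658 genes in the estimate of depth relative to wt. Of the 2785 to 2860 low values of each library, 46.1% to 47.9% came out as whole reads within 2%, so no count model was fitted. Exact 95% intervals rest on these estimates.

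Transcript length, coding length and GC content came from 1 GENCODE release 29 transcript per gene, the longest RefSeq-linked one where there is any, else the longest of all. It was matched for 11314 genes (97.8%), 10785 by symbol, 523 by RefSeq synonym and 6 by older symbol. For 1129 genes this is over 3 times the shortest RefSeq-linked transcript, which can misplace genes such as DNAH14 (13763 against 1103 bases). RPL37, with a coding part of 291 bases, has no RefSeq-linked coding transcript shorter than its 7686 bases, so the shortest-transcript alternative leaves it among long genes. The smooth length trend is a lowess fit (fraction 0.2, 2 rounds) on log length. It was tried on simulated data with a straight trend, the same at all levels, with counting error only and no GC effect. That trial cannot show how well the fit removes a trend that varies with level or GC content. Promoter windows came from RefSeq, which gave none for MMP1, IL13RA2, COL6A1 or TRIM28. Python 3.11.15, pandas 2.3.3, statsmodels 0.14.6 and scipy 1.17.1 were used.

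Named genes are the study's genes, the 15 highest and 15 lowest differences among genes averaging at least 5 RPKM, the 10 in each direction with the trend removed, the extremes of the longest, middle and shortest of 10 length groups (8 each), up to 3 members of each group in each direction and the 10 highest levels. Not all are printed, and some genes and 1 group are not reported here. The members, the 81 gene lists and the rules were chosen with earlier results of these data known. Alternatives on coding length, shortest transcript, the S473A library as control and identical copies, and the extremes by coding length and at 1 to 5 RPKM, were chosen after seeing the data.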

Additional observations from a re-analysis of the deposited data

How the results depend on the processing

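With 1 library per form no spread between cultures can be given, and no paired analysis was possible because each group holds 1 library. The 117 genes at least 2-fold higher in S473D became 199 with differences centred on their median, 208 with S473D scaled by a trimmed mean (which moves the median of all genes from -0.10 to -0.01), 51 with the length trend removed, 48 with GC content removed too, 33 with a trend on coding length and 65 with one on the shortest transcript. The 11 lower genes became 40 and 23 with pseudocounts of 0.1 and 0.5, 4 at a minimum mean of 5 RPKM, 18 with short RNAs kept, 25 with the length trend removed and 19 with a trend on the shortest transcript. The distance between the shortest and the longest of 10 length groups, 0.653, was 0.246 with no filter on low values, where genes near 0 cannot differ much on this scale. The range over chromosomes, 0.230, was 0.135 with GC content removed too. With the S473A library as control the counts were 117 and 13 and the distance 0.637. Over its alternatives Spearman's rho ran from -0.36 to -0.55. Of 103 named genes with a length 98 kept their direction with the length trend removed and 24 changed their side of 2-fold.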
